A study of Mus musculus with 14 samples.

Results

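Mouse genes whose symbol is Zfp followed by a number encode zinc finger proteins. Of 333 such symbols in the table of 23412 genes, 266 had a mean RNA level of at least 5 CPM (the gene's share of all counts in the column, on a common scale) in control cortex, and these 266 genes are described here. Of the others, 63 lay under that level and 4 had no values in the columns used. The genes were thus chosen by their control RNA level, so RNA levels are a description, and ribosome footprints are the measure that the choice did not use. The members just inside the threshold were Zfp524 at 5.07 CPM, Zfp459 at 5.20 CPM and Zfp57 at 5.39 CPM. The genes just outside it were Zfp366 at 4.99 CPM, Zfp503 at 4.96 CPM and Zfp879 at 4.95 CPM. None of the 3 members nearest the threshold was called in any comparison below. The series measured RNA-seq and ribosome profiling, which sequences the mRNA fragments shielded by ribosomes (footprints), in the cerebral cortex of mice with and without Fmr1. Control mice were Rpl22flox/flox;CamKCre+, and the mutant (KO) mice were Fmr1X-Y;Rpl22flox/flox;CamKCre+, so both genotypes carry the floxed Rpl22 allele and a Cre driven by a CamK promoter. The labels name the source as CAMKIIa-Ribotag brain, but the protocols name no pull-down of tagged ribosomes, and the lysate holds RNA of all cortical cell types. No age or treatment is given. RNA came from control mice 1, 3, 6 and 8 and KO mice 2, 4, 5 and 7, and footprints from control mice 1, 3 and 9 and KO mice 2, 4 and 10.

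Most proteins with such names contain C2H2 zinc fingers, small folds in which a pair of cysteines and a pair of histidines hold a zinc ion and the fold reads a few bases of DNA. Many also carry a KRAB domain, which recruits the co-repressor TRIM28 (Trim28) and through it the histone methyltransferase SETDB1, HP1 proteins and the NuRD complex, and which silences transposable elements and imprinted loci. KRAB zinc finger genes multiplied by local duplication, so that many lie side by side and resemble each other in sequence. FMRP, the product of Fmr1, binds mRNA in neurons and associates with ribosomes. A small number of Zfp symbols stand for proteins with other kinds of zinc fingers or other functions, such as the RNA-binding protein Zfp106.

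Many promoters of these genes share a sequence that the choice of members did not use, and it is shown here because it sets many neighbouring members side by side. RefSeq promoter windows (GRCm38.p6) were matched for 222 of the 266 genes, and the 250 bases before the annotated start were searched on both strands. The core of the binding site of ZNF143, a zinc finger activator itself encoded by a member (Zfp143), was spelled ACTACA, any 2 bases, then TCC. These letters were chosen after members' promoters had been looked at. The core was in 40 of the 222 windows (18.0%), in 4.40% of 8583 windows of genes of any name at or over 5 CPM, and in 1.97% of all 27025 windows of the same length. It occurred 43 times, 31 of them on the strand opposite to the gene and 29 within 100 bases of the start, with a median of 55 bases. In the run of 10 neighbouring Zfp-numbered genes from Zfp180 to Zfp94 on chromosome 7, all 9 members had a window and 7 held the core. These are the 31 bases around each match, read 5′ to 3′ on the strand that carries the core, with the core in capitals. Zfp112 and Zfp108 each held it in 2 places.
Zfp180 (chr7:24081865-24081895, minus strand): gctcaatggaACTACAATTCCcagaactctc
Zfp112 (chr7:24112162-24112192, minus strand): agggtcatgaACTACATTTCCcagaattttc
Zfp112 (chr7:24112256-24112286, minus strand): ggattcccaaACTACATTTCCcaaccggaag
Zfp111 (chr7:24208192-24208222, plus strand): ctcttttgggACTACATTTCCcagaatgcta
Zfp109 (chr7:24237702-24237732, plus strand): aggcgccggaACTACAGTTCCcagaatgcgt
Zfp108 (chr7:24254661-24254691, minus strand): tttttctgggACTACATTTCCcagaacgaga
Zfp108 (chr7:24254717-24254747, minus strand): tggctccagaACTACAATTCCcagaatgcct
Zfp93 (chr7:24270337-24270367, minus strand): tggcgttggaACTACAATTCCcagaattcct
Zfp94 (chr7:24316803-24316833, plus strand): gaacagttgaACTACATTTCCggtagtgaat
In each of these 9 stretches the core lies on the strand opposite to the gene, and in most of them the letters cagaa or a near form follow it. The same core was in the windows of 3 members on chromosome 13 that passed a test of genotype described further on, and they are shown for that reason.
Zfp458 (chr13:67269151-67269181, plus strand): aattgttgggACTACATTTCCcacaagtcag
Zfp738 (chr13:67683547-67683577, plus strand): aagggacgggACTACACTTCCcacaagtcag
Zfp759 (chr13:67128167-67128197, minus strand): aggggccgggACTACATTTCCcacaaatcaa
Here too the core lies opposite to the gene, and a stretch beginning cacaa follows it.

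The shares of 6 other motifs are given as a description and are not ranked against the ZNF143 core, whose letters were chosen on these windows. The NRF1 site was in 3.60% of the members' windows (8 of 222), 1.74% of those genes' windows and 0.781% of all windows. An ETS site (CCGGAAGT) was in 9.01% of the members' windows, 5.97% of those genes' windows and 2.93% of all windows. A CCAAT box (GATTGGC) was in 14.4%, 10.1% and 6.67%. A cyclic AMP response element (TGACGTCA, 2.70%, 3.04% and 1.62%), an E-box (CACGTG, 7.66%, 8.88% and 6.05%) and a TATA box (TATAAA, 6.76%, 5.62% and 13.0%) were also searched. All motifs were searched on both strands. Overlaps between motifs within a window were not counted. The members' windows held a median of 55.2% G and C, against 60.8% for the genes at or over 5 CPM. The ZNF143 core was more often in the windows of members with another Zfp-numbered gene next to them (32 of 116, 27.6%) than in those of members without one (8 of 106, 7.55%). Neighbouring members share sequence by descent, so their windows are not independent, and the difference was not tested. A match of letters is a description and not evidence of binding.

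Facts of the libraries bear on all that follows. An RNA library held 8847547 to 11371851 counts and a footprint library 4124065 to 6033030. Fmr1 lay at 71.3 to 89.9 CPM in control RNA and 18.1 to 23.4 CPM in KO RNA, and at 111 to 115 CPM in control footprints and 5.82 to 8.54 CPM in KO footprints, so each library went with its label. Here and below CPM is scaled by the trimmed mean of M values (TMM). The summed level of 10 activity-regulated genes was 261 to 270 CPM in the RNA of 3 controls and 548 CPM in control mouse 8, against 1112 to 1150 CPM in 3 KO mice and 490 CPM in KO mouse 5. In footprints it was 640 to 689 CPM in controls against 2465 to 2522 CPM in KO mice, and all 10 genes were called higher in both assays. The RNA libraries of KO mice 2, 4 and 7 were nearly identical, and to a lesser degree those of control mice 1 and 3. The labels give them different mouse numbers, but whether they come from separate tissue preparations is not known. If not, n = 4 overstates the replicates, the RNA adjusted p-values are too small, and TE shares these libraries. RNA calls are therefore also given with KO mice 2, 4 and 7 summed to 1 library. This leaves 2 KO libraries, the sum and KO mouse 5. With fewer libraries a test finds less, so a call lost in that fit does not show that a change is absent. Excitatory neuron markers (6 genes) summed to 2493 to 2765 CPM in control RNA and 3135 to 3408 CPM in KO RNA, and choroid plexus markers (4 genes) to 10.2 to 278 CPM and 5.31 to 116 CPM. In footprints, excitatory neuron markers summed to 5564 to 5709 CPM in controls against 5354 to 5617 CPM in KO mice, which overlap, with 3 genes called higher and 1 lower. Choroid plexus markers summed to 9.68 to 13.7 CPM in control footprints and 4.74 to 7.39 CPM in KO footprints, with 2 of 4 called lower and a median log2 fold change of -1.13. Oligodendrocyte markers (6 genes) summed to 4884 to 5327 CPM in control RNA and 4267 to 4594 CPM in KO RNA, and in footprints to 8194 to 8353 CPM and 8007 to 8049 CPM. Astrocyte markers (6 genes) summed to 3200 to 3228 CPM in control footprints and 3005 to 3052 CPM in KO footprints, while their RNA overlapped. Inhibitory neuron markers (6 genes) summed to 1621 to 1667 CPM in control footprints and 1694 to 1721 CPM in KO footprints. No marker of any list was at 0. The part of these differences in the results below was not tested. In bulk tissue, fewer cells of a type and less RNA per cell cannot be told apart.

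The members had few footprints for their RNA in control cortex. Together they took 0.899% ± 0.0113 (SD, n = 4) of RNA counts but 0.425% ± 0.00557 (SD, n = 3) of footprints. In KO mice the shares were 0.896% ± 0.0180 (SD, n = 4) and 0.432% ± 0.00430 (SD, n = 3). The control and KO libraries overlapped in both assays. The ratio of a gene's footprint CPM to its RNA CPM was described for the 253 members with enough counts in both assays. Its median was 0.509, or -0.98 on the log2 scale, against -0.13 for all 12145 genes and -0.18 for the 11194 genes of any name at or over 5 CPM. Of the 253 members, 221 (87.4%) lay below the median of all genes. Taken with 1 footprint library at a time, the members' median was -0.92, -0.94 and -1.03 for control mice 1, 3 and 9 and -1.01, -1.05 and -1.01 for KO mice 2, 4 and 10. The same over all genes lay between -0.15 and -0.13 in these 6 libraries. The ratio is one of shares of counts within each assay, so it orders genes and gives no absolute rate, and the RNA level that chose the members is its denominator. The 50 genes named Zbtb, Zkscan or Zscan with a number, which also encode zinc finger proteins, had a median of -0.82. Of the Zfp-numbered genes under the RNA threshold, the 14 with enough counts in both assays had a median of 0.19, above that of all genes. These 14 of 63 had to hold enough footprints at a low RNA level to be counted.

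**Figure D1:**
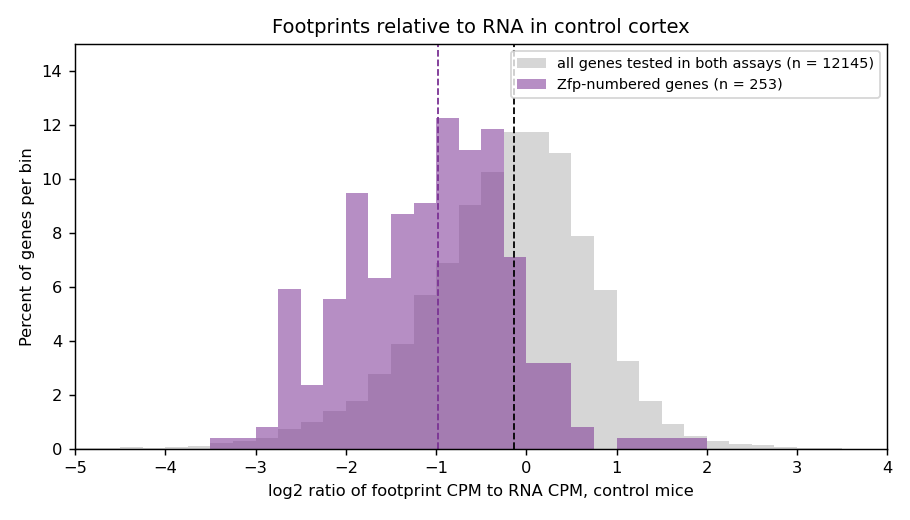
Distribution of the log2 ratio of footprint CPM to RNA CPM in control mice, as percent of genes per bin of width 0.25, for all genes tested in both assays (grey, n = 12145) and for the Zfp-numbered genes (purple, n = 253). Dashed lines mark the medians, -0.13 and -0.98. The Zfp-numbered genes lie to the left of the whole set, and 20 genes of the whole set fall outside the plotted range of -5 to 4.

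Members spread widely in this ratio, from -3.42 to 1.92 on the log2 scale. Lowest was Zfp758, with 19.8, 26.0, 18.8 and 19.7 RNA CPM in control mice 1, 3, 6 and 8 and 2.60, 1.53 and 1.77 footprint CPM in control mice 1, 3 and 9. Zfp617 (-3.23), Zfp458 (-2.95), Zfp810 (-2.86) and Zfp706 (-2.74) followed. Each of these 5 had a mean footprint count of 13.3 to 18.2 per library, so the order among them is uncertain. For Zfp706, which overlaps a predicted coding gene, the RNA columns without a suffix held 7.28% of the exon counts, against a median of 65.2% for members, so its level depends on the region counted. Highest was Zfp319 (1.92), with 33, 34.8 and 29.9 footprint CPM and 8.56, 8.81, 8.74 and 8.28 RNA CPM in controls, although it overlaps 2 other coding genes. Zfp703 (1.65), a transcriptional co-repressor, Zfp513 (1.41), Zfp326 (1.19), a subunit of a complex that links transcript elongation to splicing, and Zfp362 (0.55) came next. Zfp703 had 41.5, 45.6 and 43.9 footprint CPM and 12, 15.3, 13.7 and 14.8 RNA CPM. Members with another Zfp-numbered gene next to them had a median ratio of -1.14 (n = 128) in controls, and those without had -0.78 (n = 125). In KO mice the medians were -1.08 and -0.97, a smaller gap, and neither gap was tested.

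Ribosome footprints differed with genotype in both directions. Of the 253 members tested, 39 (15.4%) were called by edgeR at an adjusted p under 0.05, 16 higher and 23 lower in KO mice, against 25.5% of all genes tested (11.9% higher and 13.6% lower). The members' share was below that of all genes, and members have fewer footprints, with a median of 55.2 counts per library against 136. On plain library sizes 46 members (18.2%) were called, 26 higher and 20 lower, against 28.4% of all genes, 2284 higher and 1163 lower. DESeq2 called 22 members (8.70%), 8 higher and 14 lower, against 14.8% of all genes. The members' median log2 fold change was 0.010, against 0.0055 for all genes. The other 13 members had a mean footprint count of 3.33 to 9.83 and were not tested. Among the 133 members with more footprints, 10 were called higher and 20 lower, and among the 120 tested with fewer, 6 and 3.

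**Figure D2:**
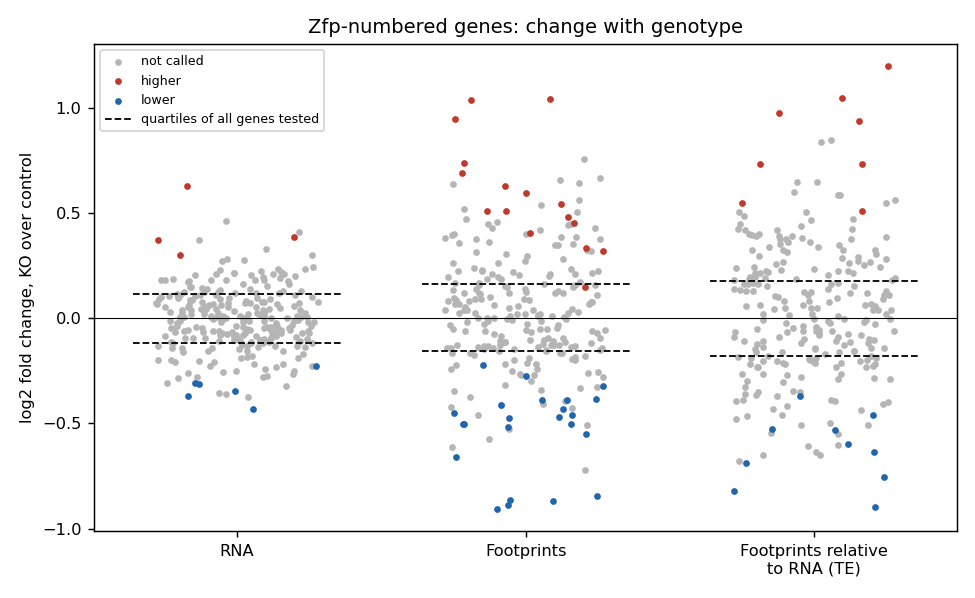
Log2 fold change of each Zfp-numbered gene, KO over control, in RNA (266 genes), footprints (253) and footprints relative to RNA (TE, 253). Red and blue points passed edgeR's test (adjusted p under 0.05) and grey points did not, and dashed lines are the quartiles of all genes tested. The spread is wider in footprints and TE, where called genes lie on both sides of 0.

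The largest falls in footprints were in Zfp608, Zfp462 and Zfp318. Zfp608 and Zfp609 are related proteins, of which Zfp608 is known to repress recombination genes in thymocytes. Zfp608 footprints were 32.1, 30.5 and 28.5 CPM in control mice 1, 3 and 9 and 14, 16.6 and 17.6 CPM in KO mice 2, 4 and 10. All KO libraries lay below all controls, with a log2 fold change of -0.91 (SE 0.12; edgeR adjusted p = 3.45e-09). Zfp462, a protein of many zinc fingers needed for normal brain development, was at 56.6, 61.6 and 61.3 CPM in controls against 35.1, 31.6 and 31.0 CPM in KO mice. It fell by 0.89 ± 0.088 (SE, adjusted p = 1.50e-14, edgeR). Zfp318, known for the choice between IgM and IgD in B cells, was at 60.0, 66.5 and 68.2 CPM and 38.2, 37.2 and 32.0 CPM, a change of -0.87 ± 0.086 (SE, adjusted p = 9.53e-15, edgeR). In each of these 3 genes the groups did not overlap, and the calls held when any 1 library was left out.

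Smaller or less certain falls followed. Zfp423, a partner of Ebf and Smad proteins in development, fell by 0.84 ± 0.21 (SE, adjusted p = 0.00101, edgeR), from 10.9, 11.0 and 8.68 CPM to 4.98, 6.05 and 5.86 CPM. Zfp827, known to bring the NuRD complex to telomeres, was at 46.7, 46.1 and 47.1 CPM in controls against 31.8, 37.2 and 27.0 CPM in KO mice, a change of -0.55 ± 0.097 (SE, adjusted p = 2.89e-06, edgeR). The KO libraries of Zfp827 were spread more than the controls but did not overlap them. Zfp710 was at 12.3, 14.6 and 14.7 CPM in controls against 6.40, 7.61 and 12.1 CPM in KO mice (log2 fold change -0.66 ± 0.18 SE, adjusted p = 0.00289, edgeR). KO mouse 10 came close to control mouse 1, and the call was lost without KO mouse 2 (adjusted p = 0.0592, edgeR). Zfp786 fell by 0.87 ± 0.31 (SE, adjusted p = 0.0302, edgeR) on a mean of 17.8 counts, from 4.25, 5.09 and 4.43 CPM to 1.90, 2.69 and 2.93 CPM. Its call was lost without KO mouse 2 (adjusted p = 0.139, edgeR), control mouse 3 (0.123) or KO mouse 4 (0.0670) and with DESeq2 (0.155). Zfp786 overlaps Zfp398 in the annotation. Zfp398 also fell, by 0.39 ± 0.14 (SE, adjusted p = 0.0309, edgeR), and lost its call without KO mouse 2 (0.0689), control mouse 3 (0.247) or KO mouse 10 (0.133), on plain library sizes (0.0696) and with DESeq2 (0.174). Zfp516, a regulator of brown fat genes, was at 13.7, 11.4 and 11.2 CPM and 9.49, 8.51 and 7.12 CPM (log2 fold change -0.52 ± 0.18 SE, adjusted p = 0.0262, edgeR). Without control mouse 1 it was not called (edgeR adjusted p = 0.121), nor without KO mouse 4 (0.0610) or KO mouse 10 (0.155) or with DESeq2 (0.141).

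The other 15 called falls were between -0.50 and -0.22 on the log2 scale. Among them were Zfp532 (-0.47) and Zfp687 (-0.32), zinc finger proteins that join ZMYND8 in a chromatin complex, and Zfp536 (-0.47), a repressor of neuronal differentiation. Zfp106 (-0.39), the RNA-binding protein, was at 64.4, 63.1 and 62.2 CPM in controls against 47.0, 51.3 and 46.3 CPM in KO mice. Zfp644 (-0.22), a partner of the histone methyltransferases G9a and GLP, and Zfp828 (-0.27; RefSeq symbol Champ1), which helps attach chromosomes to the spindle, also fell. Of this group, Zfp532, Zfp536, Zfp687, Zfp644 and Zfp828 fall outside the naming rule and were chosen after their values were seen. The Zfp687 call was lost without control mouse 1 (adjusted p = 0.0782, edgeR), KO mouse 2 (0.129), control mouse 3 (0.169) or KO mouse 10 (0.130), on plain library sizes (0.0890) and with DESeq2 (0.167). The Zfp644 call was lost without control mouse 1 (adjusted p = 0.148, edgeR) or KO mouse 4 (0.0578), on plain library sizes (0.0702) and with DESeq2 (0.0767).

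The largest rises were in Zfp120, Zfp758 and Zfp958. Zfp120 was at 3.30, 3.22 and 3.19 CPM in controls against 7.12, 7.39 and 5.66 CPM in KO mice. It rose by 1.04 ± 0.27 (SE, log2; edgeR adjusted p = 0.00137) on a mean of 23.5 counts per library. Zfp958 went from 4.25, 5.60 and 4.61 CPM to 8.07, 8.29 and 11.7 CPM (0.95 ± 0.22 SE, adjusted p = 0.000497, edgeR). Zfp2 went from 6.61, 7.12 and 6.73 CPM to 11.1, 11.0 and 12.1 CPM (0.74 ± 0.19 SE, adjusted p = 0.00162, edgeR). In these 3 genes each KO library was above each control library by a clear gap. Zfp938 rose by 0.69 ± 0.17 (SE, adjusted p = 0.000766, edgeR), from 9.68, 8.31 and 9.75 CPM to 16.6, 14.3 and 13.8 CPM. Zfp248 rose by 0.60 ± 0.15 (SE, adjusted p = 0.00115, edgeR), from 12.5, 11.0 and 12.6 CPM to 17.8, 17.2 and 19.3 CPM. These 5 calls held when any 1 library was left out and with DESeq2.

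The remaining 3 of the largest rises depended on single libraries. Zfp758, the member with the lowest ratio, went from 2.60, 1.53 and 1.77 CPM to 4.03, 3.36 and 4.40 CPM (1.04 ± 0.35 SE, adjusted p = 0.0184, edgeR). Its call was lost without KO mouse 2 (adjusted p = 0.0526, edgeR), control mouse 3 (0.106), control mouse 9 (0.0572) or KO mouse 10 (0.0940). Zfp667 went from 7.79, 5.94 and 9.92 CPM to 12.1, 10.1 and 14.2 CPM (0.63 ± 0.19 SE, adjusted p = 0.00766, edgeR). The lowest KO library was just above the highest control, and the call was lost without control mouse 3 (adjusted p = 0.125, edgeR) or KO mouse 10 (0.103) and with DESeq2 (0.0805). Zfp945 went from 7.32, 8.31 and 10.8 CPM to 15.9, 11.0 and 12.4 CPM (0.54 ± 0.18 SE, adjusted p = 0.0164, edgeR). Its call was lost without control mouse 1 (adjusted p = 0.0831, edgeR), KO mouse 2 (0.176) or control mouse 3 (0.0729) and with DESeq2 (0.110). The other 8 called rises were between 0.15 and 0.51. The smallest was Zfp365, a neuronal protein that binds Disc1, with 120, 119 and 124 footprint CPM in controls against 134, 136 and 133 CPM in KO mice. This change of 0.15 ± 0.052 (SE, adjusted p = 0.0256, edgeR) lost its call without control mouse 1 (0.0624), KO mouse 2 (0.0557), control mouse 3 (0.113) or KO mouse 4 (0.0853) and with DESeq2 (0.136). Zfp365 falls outside the naming rule.

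**Figure D3:**
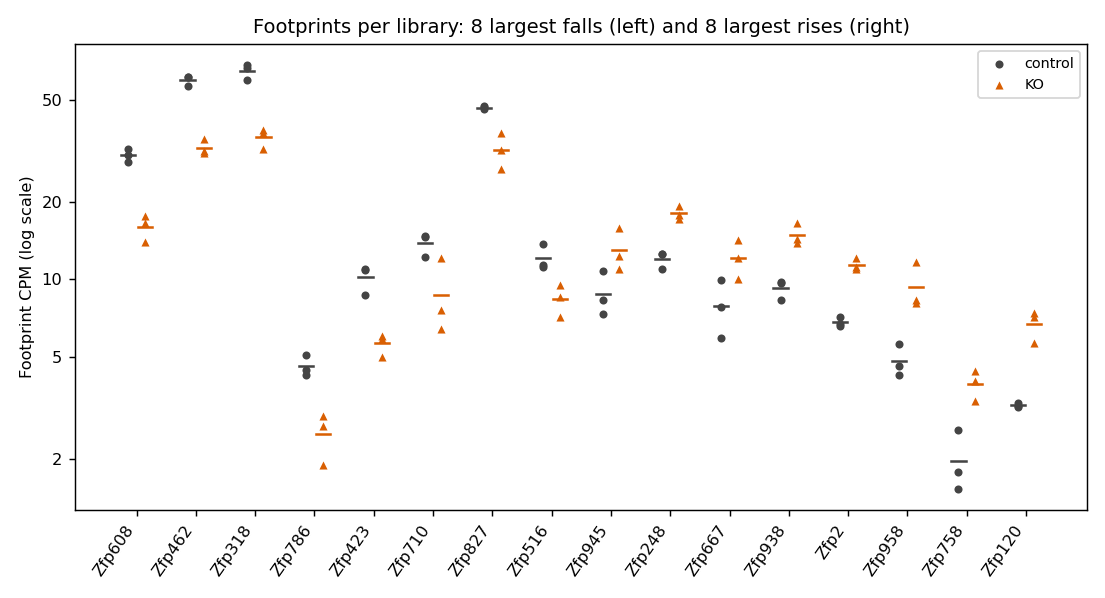
Footprint CPM (log axis) in each library of control (circles, n = 3) and KO (triangles, n = 3) mice for the 8 called members with the largest falls (left) and the 8 with the largest rises (right). Horizontal bars are group means. In all 16 genes the KO libraries lie on one side of the controls, with narrow gaps in Zfp710, Zfp667 and Zfp945. The genes were chosen as called in these libraries, so this separation goes largely with the choice.

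Footprints relative to RNA, the translational efficiency (TE), were tested as the interaction of genotype and assay in one model over the 14 libraries. Of 253 members, 18 (7.11%) were called, 8 higher and 10 lower in KO mice, against 7.66% of all genes (3.59% higher and 4.07% lower). With mouse number as a replicate block, since mice 1 to 4 gave both libraries, 30 members (11.9%) were called, 9 higher and 21 lower, of which 16 were among the 18, against 15.3% of all genes in the same fit. On plain library sizes 12 members were called higher and 8 lower, against 724 and 347 of all genes. Without KO mouse 2, 8 members (3.14%) were called, against 3.30% of all genes. The RNA part of TE includes the libraries that chose the members, so these counts are descriptive.

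The falls in TE joined genes with different RNA results. Zfp462 had the smallest adjusted p, with -0.75 ± 0.098 (SE, adjusted p = 5.65e-05, edgeR), and its RNA was not called (-0.13, adjusted p = 0.169). Zfp609, known to work with the Integrator complex in neural progenitors, fell in TE by 0.82 ± 0.15 (SE, adjusted p = 0.00159, edgeR). Its footprints were at 30.0, 32.7 and 28.2 CPM in controls against 25.9, 18.6 and 22.4 CPM in KO mice, while its RNA was at 33, 30.7, 28.0 and 27.0 CPM and 40.2, 36, 41.0 and 36.8 CPM. Thus footprints were lower and RNA higher in every KO library than in any control. Its footprint call was lost without KO mouse 4 (adjusted p = 0.0513, edgeR). Zfp513, a regulator of photoreceptor genes, fell by 0.90 ± 0.20 (SE, adjusted p = 0.00607, edgeR) with 18.9, 18.7 and 13.6 footprint CPM in controls against 14.9, 15.2 and 12.1 in KO mice, which overlap, and a rise in RNA. Zfp318 (-0.64, adjusted p = 0.000822, edgeR), Zfp608 (-0.60, 0.00854) and Zfp106 (-0.53, 0.00311) followed. Zfp608 lost its TE call without KO mouse 2 (adjusted p = 0.0664, edgeR), and the TE calls of Zfp462, Zfp609, Zfp513, Zfp318 and Zfp106 held when any 1 mouse was left out.

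Zfp398 (-0.69, adjusted p = 0.0163, edgeR) and Zfp553 (-0.53, adjusted p = 0.0367, edgeR) were the other falls among the largest 8. Zfp398 overlaps Zfp786, and its TE call was lost without KO mouse 2 (adjusted p = 0.0784, edgeR), control mouse 3 (0.104) or KO mouse 10 (0.0602). It was lost with KO mice 2, 4 and 7 summed (0.0647). Zfp553 lost its TE call without control mouse 1 (adjusted p = 0.0819, edgeR), 3 (0.0871) or 6 (0.0702), without KO mouse 2 (0.0847), 4 (0.0939), 7 (0.0572) or 10 (0.132), with the replicate block (0.0674), on plain library sizes (0.0621) and with KO mice 2, 4 and 7 summed (0.103).

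None of the 8 members called higher in TE was called in RNA. Zfp938 rose by 0.98 ± 0.18 (SE, adjusted p = 0.00145, edgeR), with a log2 fold change in RNA of -0.28 (adjusted p = 0.0549). Zfp2 rose by 0.73 ± 0.17 (SE, adjusted p = 0.0107, edgeR) and Zfp637 by 0.55 ± 0.13 (SE, adjusted p = 0.0109, edgeR), with 18.6, 20.2 and 20.7 footprint CPM in controls against 29.4, 26.7 and 26.0 CPM in KO mice for Zfp637. Zfp938 and Zfp2 kept their calls in each fit without 1 mouse, and Zfp637 lost its call only without KO mouse 2 (adjusted p = 0.0551, edgeR). Zfp758 (1.2, adjusted p = 0.0371, edgeR), Zfp120 (1.05, 0.0252), Zfp958 (0.94, 0.0323), Zfp738 (0.73, 0.0312) and Zfp248 (0.51, 0.0406) each lost their call in 5 or more of the 10 fits that left out 1 mouse. Across those fits the highest adjusted p was 0.125 for Zfp758, 0.0988 for Zfp120, 0.15 for Zfp958, 0.130 for Zfp738 and 0.166 for Zfp248. With the mouse as replicate block Zfp738 was not called either (0.54, adjusted p = 0.181, edgeR), nor was it in the exon columns (0.0604). With KO mice 2, 4 and 7 summed, Zfp758 (edgeR adjusted p = 0.0746), Zfp958 (0.0608), Zfp738 (0.0575) and Zfp248 (0.106) were not called. Zfp248 was not called with DESeq2 (0.0802) or without a filter on low counts (0.0639) either.

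In RNA few members were called. Of 266 members, 10 (3.76%) were called, 4 higher and 6 lower in KO mice, against 7.41% of all genes (3.53% higher and 3.88% lower), and the members' median log2 fold change was -0.0028. With KO mice 2, 4 and 7 summed to 1 library edgeR called none, with 22 members at an unadjusted p under 0.05, and 0.579% of all genes were called. In mice 5 to 8 alone none was called, with 16 at an unadjusted p under 0.05, against 0.652% of all genes. In mice 1 to 4 alone 45 (16.9%) were called, against 24.1% of all genes. The count was 19 (7.14%) without KO mouse 5, against 10.8% of all genes, and 22 (8.27%) without control mouse 8, against 13.0%. These are the libraries whose activity-regulated genes lay between the groups. Leaving out control mouse 1 or KO mouse 4 gave 4, KO mouse 2 gave 2, and control mouse 3, control mouse 6 or KO mouse 7 gave 3, with 2.62% to 4.78% of all genes called in these 6 fits. Choosing members by their KO level gave 269 genes and the same 10 calls.

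Zfp513 and Zfp831 kept their call in all 8 fits that left out 1 mouse. Zfp513 was at 6.75, 6.94, 6.30 and 5.75 CPM in control mice 1, 3, 6 and 8 and 10.5, 10.3, 9.18 and 9.68 CPM in KO mice 2, 4, 5 and 7. All KO libraries were higher, by 0.63 ± 0.12 (SE, log2; edgeR adjusted p = 0.00664), and the change was 0.61 in mice 1 to 4 and 0.65 in mice 5 to 8. Zfp831 was at 41.2, 42.2, 43.6 and 40.1 CPM in controls against 33.6, 33.4, 32.1 and 32.2 CPM in KO mice. It fell by 0.35 ± 0.066 (SE, adjusted p = 0.00761, edgeR), by 0.31 in mice 1 to 4 and by 0.38 in mice 5 to 8. Zfp831 footprints also fell, by 0.50 ± 0.13 (SE, adjusted p = 0.00111, edgeR), from 29.5, 27.1 and 24.8 CPM to 16.8, 23.3 and 17.0 CPM. With KO mice 2, 4 and 7 summed, both RNA calls were lost (adjusted p = 0.107 for Zfp513 and 0.117 for Zfp831, edgeR). Their log2 fold changes in that fit were 0.61 and -0.35.

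The other 8 called members each lost their RNA call in 2 or more fits without 1 mouse. Zfp652, a repressor that works with CBFA2T3, rose by 0.39 ± 0.093 (SE, adjusted p = 0.0225, edgeR), from 33.5, 27.9, 29.4 and 36.8 CPM to 40.6, 44.0, 37.8 and 44.7 CPM. Zfp523, the closest relative of ZNF143, rose by 0.30 ± 0.076 (SE, adjusted p = 0.0294, edgeR), from 58.3, 54.6, 58.7 and 71.0 CPM to 72.9, 73.8, 75.8 and 76.4 CPM. Control mouse 8 lay near the KO mice in Zfp523. Zfp143 itself, chosen after its values were seen, was not called in RNA (-0.11 ± 0.11 SE, adjusted p = 0.587, edgeR) or footprints (0.0088 ± 0.13 SE, adjusted p = 0.972, edgeR). Zfp609 rose by 0.37 ± 0.082 (SE, adjusted p = 0.0156, edgeR).

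Among the falls, Zfp787 went from 11.4, 10.1, 10.6 and 11.2 CPM to 8.10, 7.23, 9.76 and 7.21 CPM (-0.43 ± 0.12 SE, adjusted p = 0.0466, edgeR). Zfp759 went from 19.1, 22.5, 17.8 and 18.3 CPM to 14.8, 14.1, 16.7 and 14.6 CPM (-0.37 ± 0.099 SE, adjusted p = 0.0360, edgeR). In both genes KO mouse 5 was the KO library nearest to the controls. Zfp608 fell by 0.31 ± 0.072 (SE, adjusted p = 0.0192, edgeR), Zfp458 by 0.31 ± 0.088 (SE, adjusted p = 0.0494, edgeR) and Zfp318 by 0.23 ± 0.062 (SE, adjusted p = 0.0393, edgeR). Over the fits without 1 mouse the highest adjusted p was 0.155 for Zfp787, 0.121 for Zfp759, 0.0679 for Zfp608, 0.153 for Zfp458, 0.149 for Zfp318, 0.0792 for Zfp652, 0.0944 for Zfp523 and 0.0601 for Zfp609. With a replicate block by title prefix, Zfp787 (adjusted p = 0.0576, edgeR) and Zfp759 (0.0508) were not called. In the exon columns Zfp787 (adjusted p = 0.109, edgeR) and Zfp759 (0.0986) were not called. Zfp787 was not called with DESeq2 (adjusted p = 0.0553), nor Zfp458 with relative log expression size factors (0.0507, edgeR) or plain library sizes (0.0552, edgeR). With KO mice 2, 4 and 7 summed, the adjusted p was 0.307 for Zfp787, 0.276 for Zfp759, 0.184 for Zfp458, 0.201 for Zfp652 and 0.215 for Zfp523. Each of the 10 had the same direction in mice 1 to 4 and in mice 5 to 8. Of the 40 members with the ZNF143 core, Zfp458 and Zfp759 were called in RNA, both lower, against 3.76% of all 266 members and 7.41% of all genes. None of the 37 tested in footprints was called by edgeR, against 15.4% of the members tested and 25.5% of all genes. In TE, 1 of 37 was called (Zfp738, higher), against 7.11% of the members tested and 7.66% of all genes. Whether any of these shares differ was not tested.

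**Figure D4:**
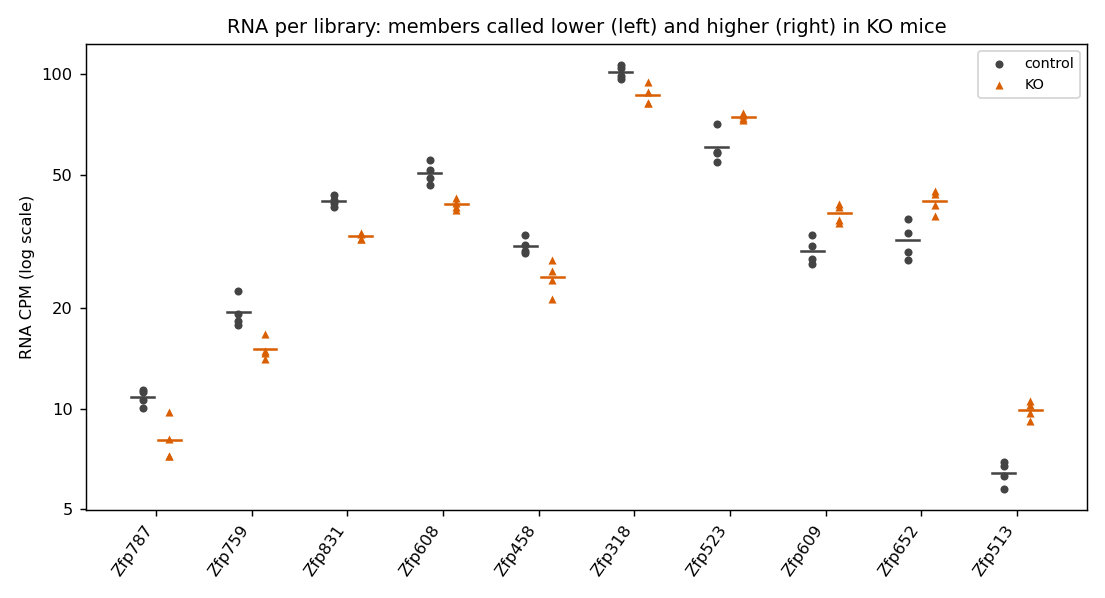
RNA CPM (log axis) in each library of control (circles, n = 4) and KO (triangles, n = 4) mice for the 10 members called in RNA, lower in KO mice on the left and higher on the right. Horizontal bars are group means. In each gene the KO libraries lie on one side of the controls, with narrow gaps in most genes. This separation, too, goes largely with the choice of called genes.

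Zfp608, Zfp318 and Zfp609 were called in all of RNA, footprints and TE. When KO mice 2, 4 and 7 were summed, none of the 3 was called in RNA (edgeR adjusted p = 0.165 for Zfp608, 0.361 for Zfp318 and 0.119 for Zfp609). The RNA call of Zfp318 was also lost with a replicate block by title prefix (edgeR adjusted p = 0.0574). In Zfp608 and Zfp318 both RNA and footprints fell, and footprints fell further (-0.91 against -0.31, and -0.87 against -0.23). In Zfp609 they moved in opposite directions. Of the 266 members, 46 were called in at least 1 comparison and 220 in none. No share of all genes is given for these counts or for the 3 genes called in all comparisons. They thus cannot be judged many or few. Among the 220 were members whose work is close to translation or to the co-repressors below and that were chosen after their values were seen. Zfp598, the ubiquitin ligase that marks collided ribosomes, had 22.0, 20.2 and 23.4 footprint CPM in controls against 22.5, 21.9 and 22.2 CPM in KO mice, which differed by 0.027 ± 0.12 on the log2 scale (edgeR adjusted p = 0.904). Zfp410, an activator of the NuRD gene Chd4, was at 10.9, 9.67 and 8.33 CPM and 11.1, 9.85 and 14.5 CPM (0.32 ± 0.18 SE, adjusted p = 0.199, edgeR). The 2 groups overlap in both genes.

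The members were also set beside the place they hold in the genome. By the order of genes in RefSeq, 135 members had another Zfp-numbered gene next to them and 131 did not. In footprints, 9 of 128 members with such a neighbour were called higher and 6 lower, and the median log2 fold change was 0.068. Of 125 members without one, 7 were called higher and 17 lower, and the median was -0.053. Of all genes, 25.5% were called, 11.9% higher and 13.6% lower. On plain library sizes these were 16 higher and 5 lower (median 0.13) and 10 higher and 15 lower (median 0.0067), so the sign of the latter median depends on the scaling. Across all genes the median was 0.0055 with TMM and 0.065 on plain library sizes. In TE, 5 were called higher and 3 lower with a neighbour, and 3 and 7 without, where 7.66% of all genes were called. On plain library sizes the TE counts were 6 higher and 1 lower with a neighbour, and 6 and 7 without, against 8.82% of all genes. The difference between the classes was not tested, since neighbours share sequence and counting, and the 2 classes differ in depth, with a median footprint count of 43.5 and 75.8 per library.

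There were 4 runs that held at least 5 members, and their footprint counts below stand beside 15.4% of the members tested and 25.5% of all genes called. Differences between runs were not tested. The run with the most members, 15 genes from Zfp84 to Zfp146, held 13 members, all tested in footprints and none called by edgeR, with log2 fold changes between -0.33 and 0.64. The run from Zfp180 to Zfp94, whose sequences are shown above, also had none called among its 9 members (-0.42 to 0.45, median -0.14). In the run of 7 from Zfp786 to Zfp746, Zfp786 and Zfp398 were lower and none higher. In the run of 5 from Zfp560 to Zfp846, Zfp26 (0.51) and Zfp266 (0.33) were higher and none lower, with a median of 0.33. That run had a median control ratio of -1.54 on the log2 scale, and the run from Zfp786 to Zfp746 had -0.32. Reads that match several similar genes may be counted for either or dropped, and the setting used is not given in the sources used here.

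**Figure D5:**
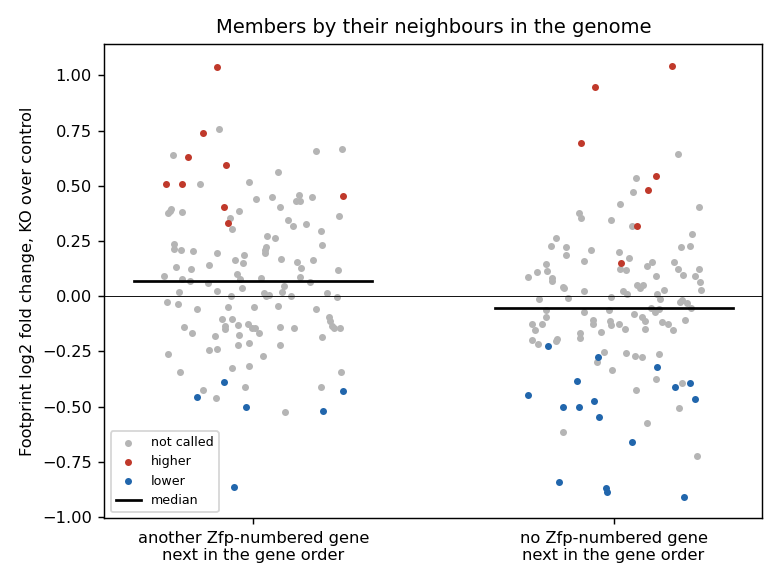
Footprint log2 fold change, KO over control, of members with another Zfp-numbered gene next in the gene order (128 genes, left) and without one (125 genes, right). Red and blue points passed edgeR's test and black bars are medians, 0.068 and -0.053. Called falls are more numerous on the right, 17 against 6.

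The KRAB co-repressor pathway was then examined with a list of 23 measured genes. Beside Trim28, Setdb1 and HP1 and NuRD genes, the list held genes of other chromatin proteins, such as DNA methyltransferases and the HUSH complex. It was chosen with earlier results of these data known, so its counts are a description. In footprints, 9 of 22 tested were called lower and 1 higher in KO mice, against 25.5% of all genes called (13.6% lower and 11.9% higher), and the list's median log2 fold change was -0.20. Atf7ip, the partner that stabilises SETDB1, fell by 0.44 ± 0.051 (SE, adjusted p = 1.47e-11, edgeR), and its TE fell by 0.56 ± 0.086 (SE, adjusted p = 0.000298, edgeR). The NuRD helicases Chd3 and Chd4 fell by 0.40 ± 0.042 (SE, adjusted p = 2.05e-13, edgeR) and 0.31 ± 0.034 (SE, adjusted p = 2.06e-12, edgeR). Mphosph8 of the HUSH complex (-0.34), the histone methyltransferases Ehmt1 (-0.30) and Ehmt2 (-0.22), the DNA methyltransferases Dnmt1 (-0.27) and Dnmt3a (-0.26) and the HP1 gene Cbx5 (-0.23) also fell. The histone deacetylase gene Hdac2 rose by 0.12 ± 0.046 (SE, adjusted p = 0.0362, edgeR). Trim28, the hub of the pathway, was not called in footprints, at 219 ± 6.65 CPM (SD, n = 3) in controls against 204 ± 4.78 CPM (SD, n = 3) in the mutants (-0.097 ± 0.042 SE, edgeR adjusted p = 0.0762), nor was Setdb1 (-0.19 ± 0.086 SE, adjusted p = 0.0939, edgeR). In RNA, Cbx5 alone was called, falling by 0.26 ± 0.066 (SE, adjusted p = 0.0278, edgeR), where 7.41% of all genes were called. With KO mice 2, 4 and 7 summed, Cbx5 was not called in RNA (-0.20, edgeR adjusted p = 0.330). In TE, Atf7ip, Chd3, Dnmt3a and Ehmt1 were lower and Hdac2 higher, where 7.66% of all genes were called. The TE calls of Ehmt1 (edgeR adjusted p = 0.0346) and Hdac2 (0.0478) were near the threshold. On plain library sizes 2 of the list were higher and 9 lower in footprints, against 28.4% of all genes called. In TE 1 was higher and 3 lower on plain library sizes, against 8.82% of all genes. The genes of the list have a median of 323 footprint counts per library, against 136 for all genes and 55.2 for the members.

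Of the 51 genes named Zbtb, Zkscan or Zscan at or over 5 CPM, 1 was called higher and none lower in RNA (edgeR, 10 at an unadjusted p under 0.05). It was Zscan21, chosen after its values were seen (0.47, edgeR adjusted p = 0.0140), and it was not called with KO mice 2, 4 and 7 summed (0.42, edgeR adjusted p = 0.171). In footprints 2 were called higher and 3 lower of 50, and in TE 1 was lower. The shares of all genes called were 7.41% in RNA, 25.5% in footprints and 7.66% in TE. Their median log2 fold changes were 0.044 in RNA and -0.040 in footprints.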

How the data were processed

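The authors deposited a table of read counts per gene for the 14 libraries. The submitters' processing notes name Bowtie2, STAR 2.5, Subread 1.4.6 and featureCounts and the builds mm9 and mm10, without a role. The region and strand setting are not given in the sources used here. Members and lists were chosen with earlier results of these data known. RNA columns without a suffix cover the same 20563 genes as the footprints, and the exon columns were an alternative. Counts were tested with edgeR 4.0.16 in R 4.3.3 (quasi-likelihood F test, TMM, filterByExpr at a minimum count of 10, group means, two-sided, Benjamini-Hochberg over all genes, threshold 0.05). TE was the interaction of genotype and assay over 14 libraries, with TMM within each assay. Standard errors come from the F statistic. Fits were tested on simulated data. The labels number the mice, and the near identity of some RNA libraries is why sums were run. Mice 1 to 4 gave libraries of both assays, which pairs them. Alternatives were other scalings, DESeq2 1.42.0, no filter, replicate blocks, left-out mice, sums and subsets of mice. Named members were the 8 largest called rises and falls per comparison, the 5 highest and 5 lowest control ratios, those near the threshold and those called in all comparisons. Others are marked as chosen after their values were seen. A protein table was not used here, so the planned classes by finger number, KRAB box and level per coding length were not made. RefSeq matched 263 members by symbol and 3 by synonym (Zfp191, Zfp259 and Zfp828), and 32 overlap another coding gene. Names of 27 genes had become dates and are not named.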

Additional observations from a re-analysis of the deposited data

Results flagged for a closer look

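In 80 groups of 4 RNA libraries, the library farthest from the rest was compared with Dixon's 95% critical value for the gap as a share of the group's range. It was exceeded in 4 groups, and chance flags about 1 in 20. Zfp106 was at 468 CPM in KO mouse 5, against 397 to 407 CPM in the other KO mice. Zfp362 was at 8.83 CPM in KO mouse 5, against 14.8 to 15.9 CPM in the other KO mice. Zfp758 was at 26.0 CPM in control mouse 3, against 18.8 to 19.8 CPM in the other controls. Zfp945 was at 25.3 CPM in control mouse 8, against 34.1 to 35.3 CPM in the other controls.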

How the results depend on the processing

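Against 10 members called in RNA, 16 were called in the exon columns, 10 higher and 6 lower (8.55% of all genes), 0 with KO mice 2, 4 and 7 summed (edgeR, 22 members at an unadjusted p under 0.05; 0.579% of all genes), 0 with control mice 1 and 3 also summed (17; 0.263% of all genes), 45 in mice 1 to 4 (24.1% of all genes) and 0 in mice 5 to 8 (16; 0.652% of all genes). With 1 mouse left out, 2 to 22 members were called in RNA, and 2.62% to 13.0% of all genes. Of the 39 footprint calls, 22 remained with DESeq2 (14.8% of all genes called). With 1 mouse left out, 26 to 48 members (10.2% to 18.8%) were called, against 20.7% to 23.3% of all genes, and 20 of the 39 held in each such fit. The 18 TE calls became 10 (3.95%) with either sum, against 4.17% and 4.42% of all genes. With 1 mouse left out they were 8 (without KO mouse 2) to 23 (without control mouse 8), or 3.14% to 9.09% of members, against 3.30% to 10.6% of all genes, and 7 of the 18 held in each fit. With a replicate block by title prefix the counts were 8 in RNA (7.09% of all genes) and 39 in footprints (26.3% of all genes), and with the mouse as replicate block the TE count was 30 (9 higher, 21 lower; 15.3% of all genes). The median control ratio was -0.90 with the exon columns and -0.98 to -0.90 with 1 mouse left out. Without the most abundant gene of each library, the members' share of footprints was 0.435% in controls and 0.434% in KO mice. No log2 fold change of a called member changed sign under the alternatives run, all of which reused libraries from which the calls were made. The causes of these differences were not tested. Members at low depth, such as Zfp758 with 13.8 footprint counts per library, can show only large changes.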
